A study of Mus musculus with 24 samples.

Results

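Neurotrophins and the GDNF family are secreted factors that support the survival, branching and synapses of neurons. BDNF, NT-3 (encoded by Ntf3) and their relatives act through the Trk receptor tyrosine kinases, TrkB (Ntrk2) being the main receptor of BDNF and TrkC (Ntrk3) that of NT-3. The receptor p75NTR (Ngfr) binds every neurotrophin. GDNF binds GFRα1 (Gfra1), a receptor held in the membrane by a lipid anchor, and the complex signals through the tyrosine kinase Ret.

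The 8 genes Bdnf, Ntf3, Ntrk2, Ntrk3, Ngfr, Gdnf, Gfra1 and Ret were looked up by platform gene symbol on 2 Affymetrix array designs, MGU74A (array A) and MGU74B (array B). In all 15 of 24833 probe sets named one of them alone, 7 on the first design and 8 on the second. They covered 7 of the 8 genes, and Ntf3 was not analysed here because neither annotation table named it. No probe set named one of the genes together with another gene. Brain total RNA of chromosomally normal mice (2N) was compared with that of Ts1Cje mice, a Down syndrome model in which the distal end of chromosome 16 is present in a further copy, joined to distal chromosome 12. Its boundary is at Sod1, which the rearrangement inactivates. Both designs were hybridised with 6 samples per genotype. The labels give no brain region, age, sex or strain background. They do not state that the samples are different animals, and the p-values then reflect only sample-to-sample spread, some of which may be technical.

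None of the 8 genes lies on chromosome 16 or 12 in the reference annotation, so each is present in the normal number of copies in both genotypes. The extra copy itself was visible. Son, an RNA splicing cofactor gene of the trisomic segment, rose by 0.92 on the log2 scale on array A (SE 0.079, limma adjusted p = 1.03e-05) and by 0.79 on array B (SE 0.13, adjusted p = 0.016). Neuronal markers were bright, with summed intensities of 4469 to 5295 in 2N and 4893 to 5713 in Ts1Cje over 6 genes on array A. Of 5 oligodendrocyte markers on array A, the myelin genes Mog, Mobp and Cnp were too dim to be tested. The other myelin genes of that list were tested, Mbp with a mean of 35.4 (65.4th percentile) and Mag with 17.4 (50.1st percentile). On the first principal component of each table, replicates 1 and 2 of both genotypes lay on one side and replicates 3 to 6 on the other. No label names this split. Differences within each part are given where their signs disagree between the parts of a tested member. They are also given for Gdnf 92738_at and for the Ntrk2 ratio. Ntrk3 114746_at and Gfra1 115410_at, which had an unadjusted limma p under 0.05, have them too. Signs agreed between the parts for all of these and also for Bdnf 102727_at, Ntrk2 116425_at and Ngfr 108762_at.

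No neurotrophin, GDNF or receptor probe set passed the test in either direction. An intensity is the brightness of a probe set after quantile normalisation, and differences are log2 values of Ts1Cje minus 2N. A probe set was tested where its mean reached the 25th percentile of its table, which 12 of the 15 did. Of these, 0 of 6 on array A had, and likewise 0 of 6 on array B, a Benjamini-Hochberg adjusted p under 0.05 in limma, where 0.0966% of all 9316 probe sets (array A) and 0.0645% of 9308 (array B) passed. An unadjusted limma p under 0.05 was reached by none on array A (0 of 6) and by 2 of 6 on array B, against 3.63% and 4.24% of all tested probe sets. Both were higher in Ts1Cje, as were 1.91% and 2.14% of all. The median difference over the tested members was -0.10 (array A) and 0.00693 (array B), beside -0.00424 and -0.00346 over all tested probe sets. In none of the 12 were the genotypes' samples free of overlap, a separation found in 0.301% and 0.247% of all tested probe sets. In this bulk tissue a change in the number of expressing cells and a change in RNA per cell cannot be told apart.

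**Figure D1:**
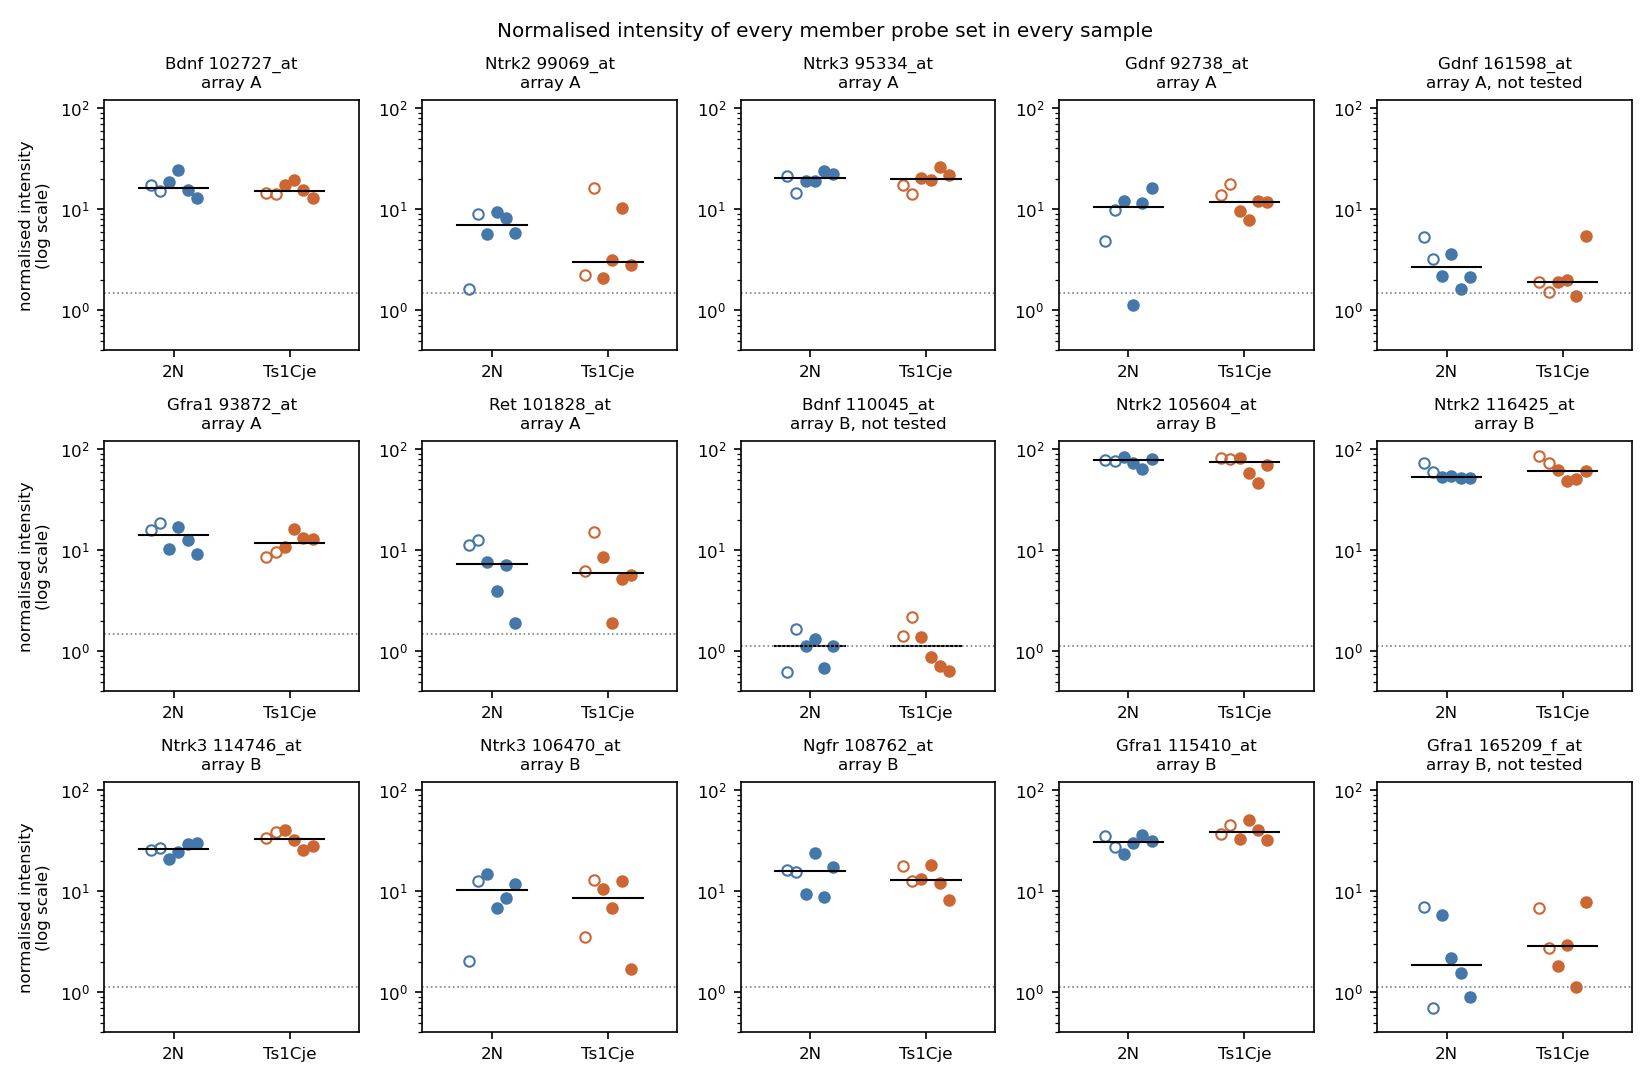
Normalised intensity on a log axis of all 15 probe sets in every sample, 2N in blue and Ts1Cje in orange, with open circles for replicates 1 and 2, filled circles for replicates 3 to 6, a black bar at the median and a dotted line at the floor of the table. The genotypes overlap in every panel, and the Ntrk2 pair on array B is the brightest while Bdnf on array B sits at the floor.

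Among the ligands, Bdnf was measured near the middle of the brightness range on array A. Its probe set 102727_at had a mean intensity of 16.5, at the 48.9th percentile of the table. The 2N samples ran from 12.8 over a median of 16.3 to 24.6, and the Ts1Cje samples from 12.9 over 15 to 19.5. The Ts1Cje range thus lay inside the 2N range, with 2N replicate 4 the highest sample. The difference was -0.13 (SE 0.20, 95% interval -0.56 to 0.29, limma adjusted p = 0.99), or 0.912-fold, and the interval stayed within 1.5-fold in both directions. Without 2N replicate 4 the difference was -0.03. The other Bdnf probe set, 110045_at on array B, had a mean of 1.14, and 7 of its 12 values were at or below the floor of 1.13. It was too dim to be tested.

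Gdnf was dim on array A, its only array here. The mean of its probe set 92738_at was 9.26 ± 5.46 (SD, n = 6) for 2N and 12.2 ± 3.49 for Ts1Cje. The 2N samples ran from 1.12 over a median of 10.6 to 16.4, and the Ts1Cje samples from 7.77 over 11.9 to 17.8. The difference of 0.68 (SE 0.48, interval -0.33 to 1.68, limma adjusted p = 0.99) is the largest among the members and also one of the least certain. Without 2N replicate 4, the sample below the floor, the difference was 0.21. It was 1.19 among replicates 1 and 2, which do not include that sample, and 0.42 among replicates 3 to 6. The second Gdnf probe set, 161598_at, was fainter still, with a mean of 2.68, and was not tested. With no filter it differed by -0.40 (interval -1.19 to 0.38, limma adjusted p = 0.98), in the opposite direction. The log2 ratio of the 2 probe sets differed between genotypes by 1.08 (SE 0.80, two-sided exact permutation p = 0.21, 0.42 adjusted over 4 such pairs).

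Ntrk2, whose product exists as a kinase-bearing form and as a truncated form abundant in astrocytes, had the brightest probe sets of the group. The files do not say which form each probe set reads. Probe set 105604_at on array B had a mean of 73.0, at the 92.3rd percentile. Its 2N samples ran from 64.3 over a median of 77.9 to 83.2, and the Ts1Cje samples from 46.8 over 75.3 to 82.6. Both Ts1Cje replicates below the 2N range, numbers 4 and 5, were at 58.5 and 46.8. The difference was -0.15 (SE 0.13, interval -0.42 to 0.13, limma adjusted p = 0.996), and it was -0.04 without Ts1Cje replicate 5. It was 0.07 among replicates 1 and 2 and -0.25 among replicates 3 to 6.

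Probe set 116425_at of Ntrk2, with a mean of 60.3, leaned the other way. The 2N samples ran from 51.6 over 53.3 to 72.3 and the Ts1Cje samples from 48.0 over 61.5 to 85.7. The highest sample of each genotype was its replicate 1, and replicates 1 and 2 held the 2 highest values in both genotypes. The difference was 0.13 (SE 0.14, interval -0.15 to 0.42, limma adjusted p = 0.996), and it was 0.04 without Ts1Cje replicate 1. The intervals of both array B probe sets lay within 1.5-fold of no difference. The log2 ratio of 105604_at to 116425_at was 0.42 in 2N and 0.14 in Ts1Cje, a difference of -0.28 (SE 0.11, two-sided exact permutation p = 0.035). Adjusted over the 4 pairs this p was 0.14, so unequal change of the Ntrk2 probe sets was not established. The difference was -0.21 among replicates 1 and 2 and -0.31 among replicates 3 to 6. With genotype labels permuted only within these parts, a test chosen after the values were seen, the exact permutation p was 0.019, or 0.076 adjusted over the 4 pairs.

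The Ntrk2 probe set on array A, 99069_at, was dim, with a mean of 6.40 at the 29.4th percentile. Its values scattered from 1.62 to 9.32 in 2N and from 2.10 to 16.2 in Ts1Cje. The difference was -0.40 with an interval from -1.67 to 0.88 (SE 0.61, limma adjusted p = 0.99). It was 0.66 among replicates 1 and 2 and -0.93 among replicates 3 to 6, so this probe set settles neither the direction nor the size.

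**Figure D2:**
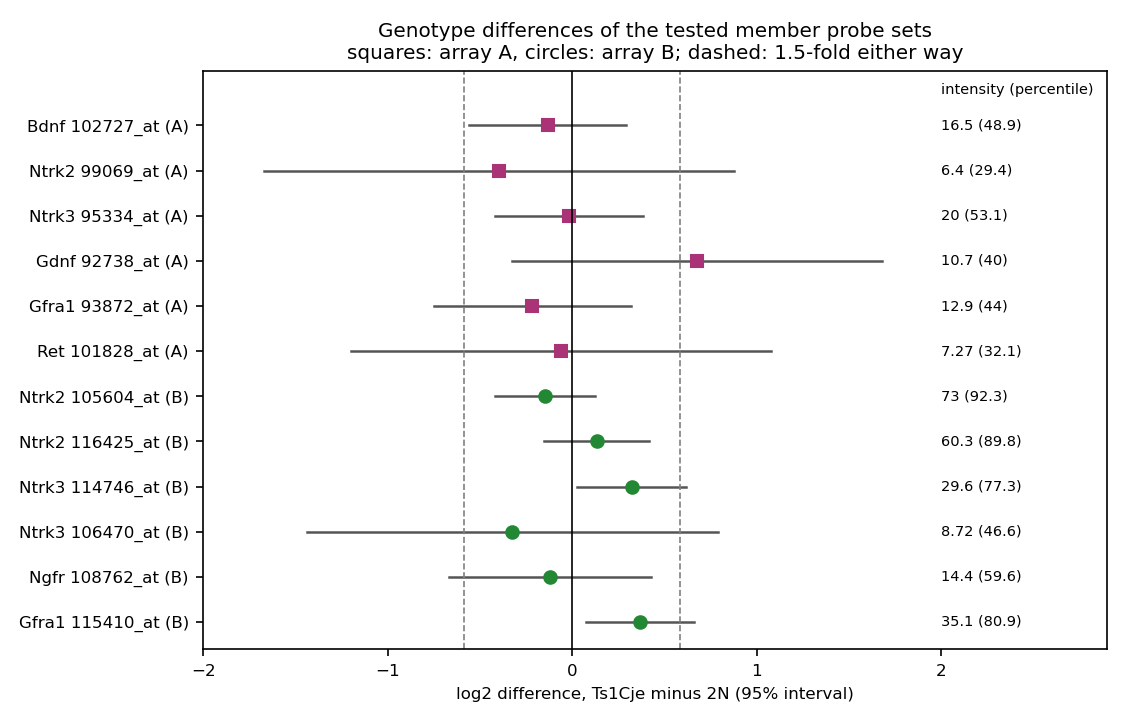
Log2 difference, Ts1Cje minus 2N, with its 95% interval for the 12 tested probe sets, squares for array A and circles for array B, with dashed lines at 1.5-fold and the mean intensity and its percentile at the right. Only Ntrk3 114746_at (0.32) and Gfra1 115410_at (0.37) have intervals that exclude 0, and neither passed after adjustment.

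Ntrk3 gave 3 readings that did not line up. On array B, probe set 114746_at, with a mean of 29.6 at the 77.3rd percentile, read 25.9, 26.6, 20.8, 24.5, 29.2 and 30.3 in 2N replicates 1 to 6. In Ts1Cje replicates 1 to 6 it read 33.3, 38.2, 40.6, 31.9, 25.8 and 27.9. Ts1Cje replicates 1 to 4 lay above all 2N samples, while replicates 5 and 6 lay inside the 2N range. The difference of 0.32 (SE 0.14, interval 0.03 to 0.62), or 1.25-fold, had an unadjusted limma p of 0.034 and an adjusted p of 0.996, and did not pass. It was 0.44 among replicates 1 and 2 and 0.26 among replicates 3 to 6.

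The other Ntrk3 probe sets did not share this direction. On array A, 95334_at gave 20 ± 3.25 (SD, n = 6) for 2N and 19.9 ± 4.18 for Ts1Cje. The samples ran from 14.6 to 23.8 and from 14.1 to 26.4, so the ranges nearly coincided. The difference was -0.02 (SE 0.19, interval -0.42 to 0.38, limma adjusted p = 0.998), within 1.5-fold either way; its sign turned with trimmed-mean scaling and in 5 of 12 refits lacking 1 sample (2N replicate 1, 5 or 6, or Ts1Cje replicate 1 or 2). It was -0.185 among replicates 1 and 2 and 0.06 among replicates 3 to 6. On array B the dim 106470_at, with a mean of 8.72, scattered from 2.02 to 14.7 in 2N and from 1.71 to 12.9 in Ts1Cje, and differed by -0.33 (SE 0.53, interval -1.44 to 0.79, limma adjusted p = 0.996). The difference turned to 0.06 without Ts1Cje replicate 6, and was 0.42 among replicates 1 and 2 and -0.70 among replicates 3 to 6. The log2 ratio of the 2 array B probe sets differed between genotypes by 0.65 (SE 0.63, exact permutation p = 0.31, 0.42 adjusted).

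Ngfr was read by 1 probe set, 108762_at on array B, with means of 15.2 ± 5.64 (SD, n = 6) for 2N and 13.6 ± 3.77 for Ts1Cje, at the 59.6th percentile. The 2N samples ran from 8.79 over a median of 15.8 to 24.0 and the Ts1Cje samples from 8.17 over 12.9 to 18.2, with no separation. The difference was -0.12 (SE 0.26, interval -0.67 to 0.43, limma adjusted p = 0.996). It was 0.03 without 2N replicate 4 and 0.02 without Ts1Cje replicate 6. Cholinergic neurons carry p75NTR in the basal forebrain. Of 4 markers of these neurons, only 2 had a probe set naming them alone, both on array A. Slc18a3 was too dim to be tested, and Ache differed by -0.11 (SE 0.17, limma adjusted p = 0.99).

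Gfra1, the GDNF-binding receptor, had the smallest unadjusted p of the group. Its probe set 115410_at on array B, with a mean of 35.1 at the 80.9th percentile, read 35.1, 27.7, 23.6, 30.0, 35.7 and 31.3 in 2N replicates 1 to 6. In Ts1Cje replicates 1 to 6 it read 36.6, 45.3, 33.0, 50.7, 40.3 and 32.0. All 6 Ts1Cje samples lay above the 2N median of 30.7 and 4 lay above the highest 2N sample, while replicates 3 and 6 fell within the 2N range. The difference was 0.37 (SE 0.14, interval 0.07 to 0.66), or 1.29-fold with an interval of 1.05 to 1.58, and the unadjusted limma p was 0.017. The adjusted p was 0.996, so it did not pass. The difference was alike within both parts of the series, at 0.39 among replicates 1 and 2 and 0.36 among replicates 3 to 6.

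Some markers of other cell types also differed on array B without passing. The 3 oligodendrocyte progenitor markers measured there, Cspg4, Sox10 and Olig2, summed to 73.6 to 109.2 in 2N and 95.4 to 133 in Ts1Cje. All 3 differences were above 0 (0.33 to 0.77, lowest limma adjusted p = 0.92), and Olig2 lies in the trisomic segment itself. On array A, Pdgfra and Sox10 summed to 127.1 to 182.3 and 133.6 to 182 with no such shift. Clic6, the choroid plexus marker on array B and also a gene of the trisomic segment, differed by 0.42 (SE 0.16), and its samples ran from 16.7 to 28.6 and from 25.8 to 36.9. The endothelial markers on array B went apart, Flt1 at -1.07 (SE 0.38) and Eng at 0.23 (SE 0.37), with limma adjusted p of 0.996 for all 3 of these genes. The Flt1 probe set there was dim, with a mean of 8.04. The one used on array A, with a mean of 14.3, differed by -0.09 (SE 0.31). The 6 endothelial markers tested on array A had a median difference of 0.11. Of choroid plexus markers on array A, Ttr differed by 0.06 (SE 0.24) and Folr1 by 0.36 (SE 0.19). The 4 neuronal and 4 astrocyte markers tested on array B had medians of -0.01 each. The part of any of these cells in the Gfra1 and Ntrk3 values was not tested.

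Array A gave the opposite sign for Gfra1. Its probe set 93872_at, with a mean of 12.9, ran from 9.25 over a median of 14.2 to 18.7 in 2N and from 8.53 over 11.8 to 16.2 in Ts1Cje. The difference was -0.22 (SE 0.25, interval -0.75 to 0.32, limma adjusted p = 0.99). It was -0.92 among replicates 1 and 2, where both Ts1Cje samples (8.53 and 9.58) lay below both 2N samples (15.7 and 18.7), whereas replicates 3 to 6 gave 0.14. The intervals of the array A and array B probe sets overlap between 0.07 and 0.32, and a test across tables that were normalised apart was not made. The third Gfra1 probe set, 165209_f_at on array B, had a mean of 3.45 with 3 of 12 values at or below the floor and was not tested. Its log2 ratio to 115410_at differed between genotypes by only -0.01, with an SE of 0.69 (exact permutation p = 0.98).

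Ret, the signalling receptor of the GDNF complex, was dim on array A. Probe set 101828_at, with a mean of 7.27 at the 32.1st percentile, ran from 1.90 over a median of 7.39 to 12.7 in 2N and from 1.91 over 5.98 to 15.1 in Ts1Cje. The samples of both genotypes covered nearly the same wide range. The difference was -0.06 (SE 0.54, interval -1.20 to 1.08, limma adjusted p = 0.998), and it was 0.27 without Ts1Cje replicate 4, 0.11 without 2N replicate 1 and 0.14 without 2N replicate 2. It was -0.30 among replicates 1 and 2 and 0.06 among replicates 3 to 6. Markers of the catecholamine neurons in which Ret is known to act showed no common direction. Of the 4 tested on array A, 3 were above 0, with a median difference of 0.10, and none passed (lowest limma adjusted p = 0.99). Th differed by -0.20 (SE 0.20), Slc6a3 by 0.18 (SE 0.40), Ddc by 0.01 (SE 0.31) and Slc6a2 by 0.49 (SE 0.48).

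How firmly a difference can be bounded followed the brightness. The 95% interval lay within 1.5-fold either way for 2 of 6 members of array A (Bdnf and Ntrk3) and for 2 of 6 of array B (both Ntrk2), beside 55.2% and 46.9% of all tested probe sets. Among probe sets at or above the median intensity these shares were 80.5% and 69.7%. Only 1 tested member on array A and 5 on array B reached the median of their table. For Ntrk2 99069_at, Gdnf, Ret and Ntrk3 106470_at the interval extended at least 1 to either side of the estimate on the log2 scale. A change of 2-fold in at least 1 direction was therefore not bounded by these arrays.

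**Figure D3:**
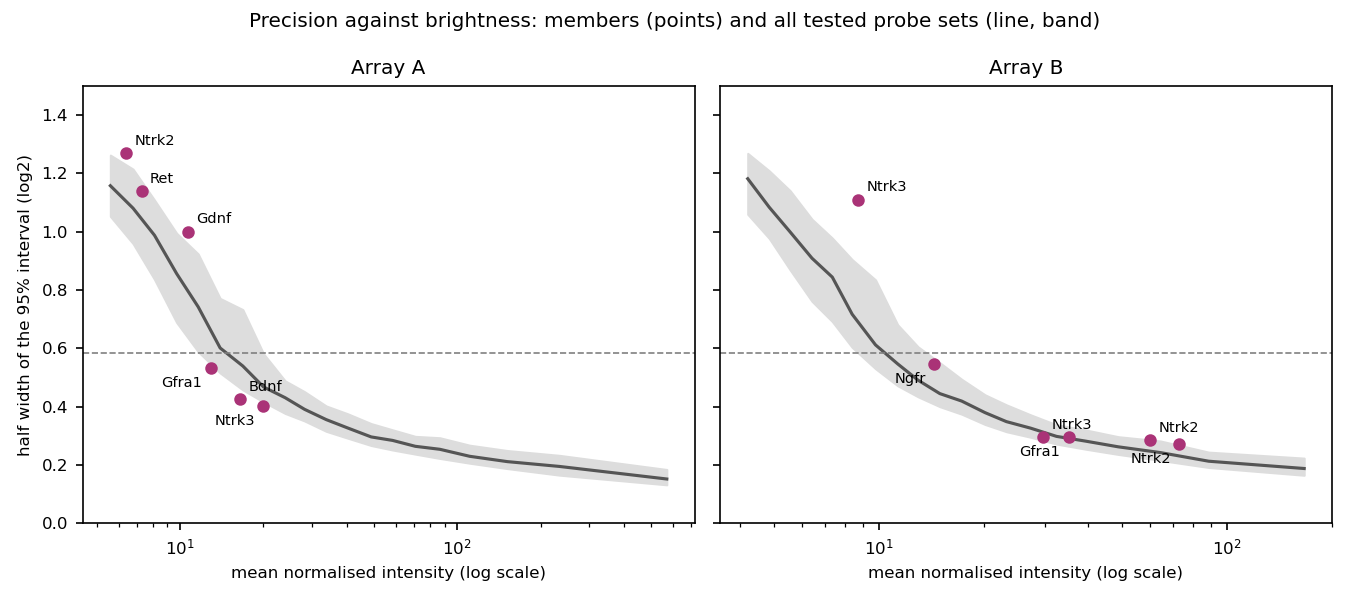
Distance from the estimate to the end of the 95% interval (log2) against mean normalised intensity on a log axis, with member probe sets as points and, for all tested probe sets in 20 bins of brightness, the median as a line and the quartiles as a band. Members above an intensity of about 29 reach 0.272 to 0.295, and the dim Ntrk2, Ret, Gdnf and Ntrk3 probe sets lie at 1 or above; the dashed line marks 1.5-fold.

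No gene of the wider pathway passed either. The lists held 119 further gene symbols, a few of them older names of a gene also listed. They were chosen by function, with earlier results of these data known. Array A tested 70 of them and array B tested 41. Of these 0 passed in either direction on either array in limma (lowest adjusted p 0.99 and 0.996). An unadjusted limma p under 0.05 was reached by 2 of 70 and 1 of 41, beside 3.63% and 4.24% of all tested probe sets. The median difference was 0.01 on each array.

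Among other ligands and receptors, 0 of 6 genes (array A) and 0 of 2 (array B) passed. Ncam1, an adhesion molecule that can also bind GDNF, gave 1260 ± 49.4 (SD, n = 6) for 2N and 1280 ± 71.2 for Ts1Cje on array A, a difference of 0.03 (SE 0.052). Gfra2, the neurturin receptor, differed by 0.15 (SE 0.14) on array A and 0.10 (SE 0.12) on array B. Gfra4, the persephin receptor, differed by -0.16 (SE 0.095). Gfra3, the artemin receptor, was dim and differed by -0.34 (SE 0.30). The ligand genes Nrtn, Pspn and Artn differed by -0.03, 0.30 and 0.47 with SEs of 0.18, 0.31 and 0.47.

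Genes for sorting and processing of neurotrophins were among the brighter ones, and 0 of 11 (array A) and 0 of 8 (array B) passed. Sort1, which encodes the sorting receptor sortilin, differed by 0.07 (SE 0.084), and Kidins220, a scaffold bound by Trk receptors, by -0.12 (SE 0.094). The carboxypeptidase gene Cpe and the protease gene Furin differed by -0.02 (SE 0.073) and 0.12 (SE 0.14), and Maged1, whose product binds p75NTR, by -0.05 (SE 0.055). Magel2, a relative of Maged1, had the smallest unadjusted p of all pathway genes, with 51 ± 5.38 (SD, n = 6) for 2N and 64.4 ± 6.82 for Ts1Cje. Its difference of 0.34 (SE 0.11) had an unadjusted limma p of 0.0077 and an adjusted p of 0.99. Ahi1, whose product takes part in TrkB trafficking, differed by 0.16 (SE 0.090) on array A and 0.11 (SE 0.087) on array B. Bex3, whose product binds p75NTR, differed by -0.41 (SE 0.26).

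No adaptor or downstream kinase gene passed. In the adaptor list 0 of 19 (array A) and 0 of 13 (array B) passed, and in the list of Ras-MAPK, PI3K-Akt and CREB effectors 0 of 22 and 0 of 12. The ubiquitin ligase adaptor gene Ndfip1 and the SH2 adaptor gene Grb2 were at 0.05 (SE 0.078) and -0.04 (SE 0.080), both on array A. The phosphatase gene Ptpn11 and the docking protein gene Dok4 were at -0.17 (SE 0.11) and -0.08 (SE 0.089), both on array B. The smallest p-values of the adaptor list on array A were those of Traf6, which acts below p75NTR, at -0.29 (SE 0.17), and Plcg1, which acts below Trk, at 0.34 (SE 0.20). The ubiquitin ligase gene Nedd4l was at -0.30 (SE 0.21) on array B. Camk2b and Akt1 differed by -0.04 (SE 0.065) and 0.00330 (SE 0.090), and the CREB coactivator gene Crtc1 by 0.15 (SE 0.088). Akt2 was at 0.21 (SE 0.13) on array A, and the PI3K subunit gene Pik3r1 at -0.04 (SE 0.076) on array B. The dim Camk2a probe set was at 0.85 (SE 0.46) and the Braf probe set on array B at -0.35 (SE 0.17), neither past the threshold.

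The list of neurotrophin and activity responsive genes had a median difference of -0.15 over 12 genes on array A and -0.14 over 6 on array B. On either array 0 passed. The array A genes include Rest, a repressor of neuronal genes, so this median is not that of induced genes alone. Vgf, a BDNF-inducible neuropeptide precursor gene, gave 161 ± 19.7 (SD, n = 6) for 2N and 139 ± 30.1 for Ts1Cje, a difference of -0.23 (SE 0.12, limma adjusted p = 0.996). Nr4a1, an activity-induced nuclear receptor gene, differed by -0.64 on array B (SE 0.24, limma adjusted p = 0.996) and by -0.11 on array A (SE 0.37). Dusp4, a MAP kinase phosphatase gene, differed by 0.02 (SE 0.13). Dusp1, of the same family, differed by -0.31 (SE 0.13, limma adjusted p = 0.99), and Rest by -0.64 (SE 0.32), the lowest value of the list on array A. The interneuron peptide genes Sst and Npy, both sensitive to BDNF, differed by 0.10 (SE 0.074) and 0.07 (SE 0.10).

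**Figure D4:**
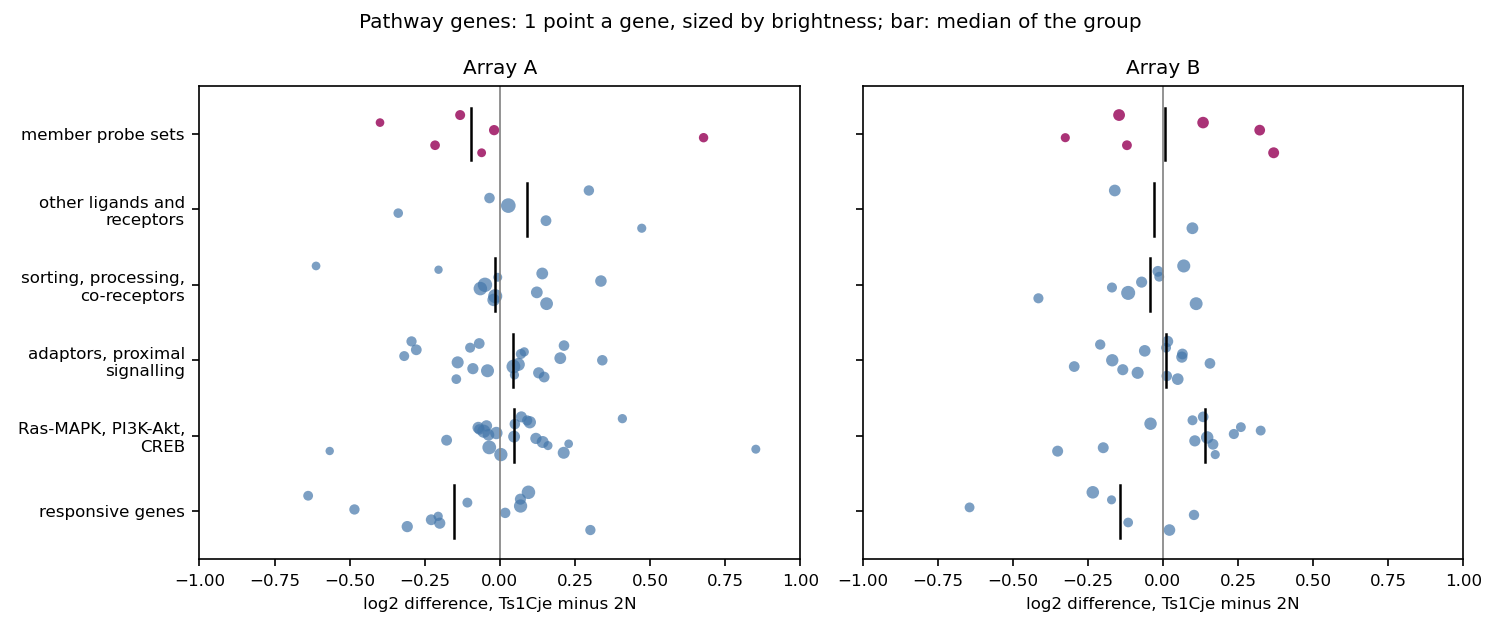
Log2 difference, Ts1Cje minus 2N, of each tested pathway gene (blue, sized by mean intensity) and of the member probe sets (purple) on arrays A and B, with a black bar at the median of each group. Group medians lie between -0.15 and 0.14, and the wide values belong mostly to small, dim points.

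For the brightest probe set of each member on an array, where it reached the median brightness, the probe sets of other genes with the most similar sample-to-sample pattern were found by Pearson correlation over 12 arrays. The mean of each genotype within replicates 1 and 2 and within 3 to 6 was subtracted first. All arrays of a table share its normalisation, and the best of over 5000 probe sets is high by selection, so these values are descriptions. Gfra1 115410_at was most like Bcl9l (r = 0.92), Kat2a (0.92) and Slc39a14 (0.91), whose own genotype differences were -0.04, -0.60 and 0.10. Ntrk3 114746_at was most like Srek1ip1 (r = 0.87), Emsy (0.87) and Glyr1 (0.86), and Ntrk3 95334_at most like Adgrl1 (0.93), Rbbp7 (0.88) and Ctsh (0.87). Ntrk2 105604_at was most like Bbip1 (r = 0.95), Syncrip (0.92) and Pcnx4 (0.90), and Ngfr most like Cebpg (0.92), Dcaf7 (0.91) and Hexdc (0.91). None of these neighbours passed the genotype test.

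**Figure D5:**
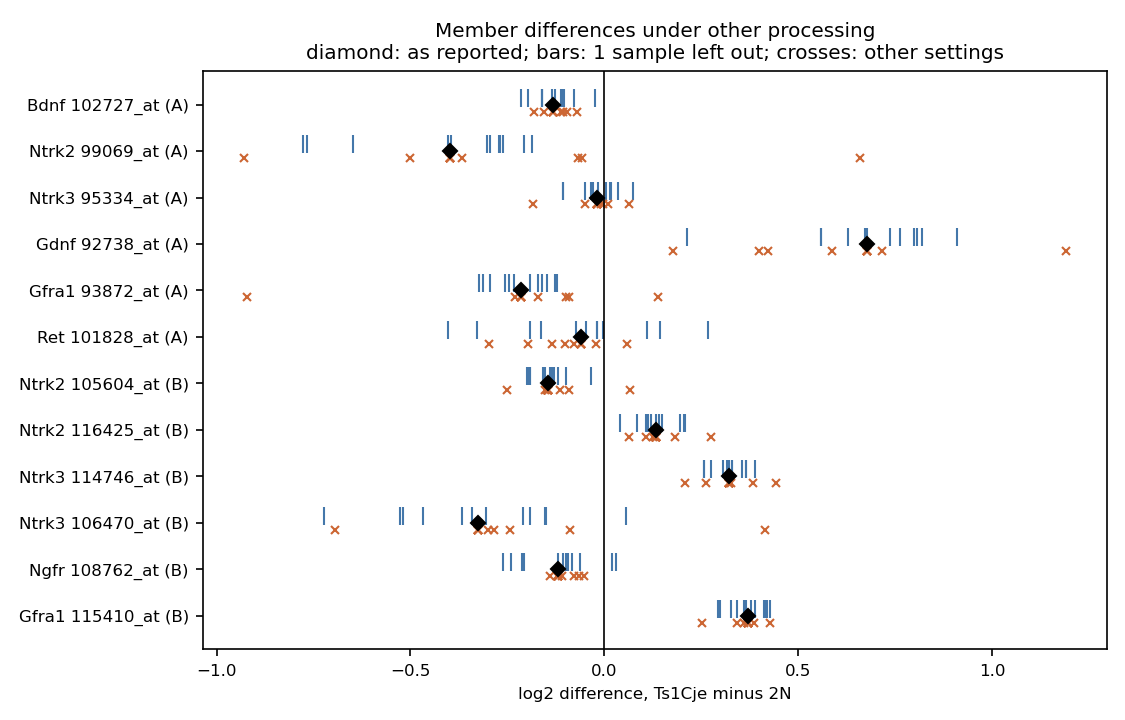
Log2 difference of the 12 tested probe sets as reported (diamond), with 1 sample left out (blue bars) and under the other settings (orange crosses). Gfra1 115410_at stays between 0.252 and 0.427 and Ntrk3 114746_at between 0.209 and 0.443, while 7 of the 12 cross 0, Ret and both dim Trk probe sets among them.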

How the data were processed

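Brain RNA was hybridised to 24 arrays, with 6 samples per genotype on each of 2 designs. Each deposited value is the intensity of a probe set on an array, linear by its range; the summarising software and scaling are not given in the sources used here. Median deposited intensities ran from 11.2 to 21.7 (array A) and 7.9 to 13.8 (array B), and trimmed means differed up to 2.10-fold and 1.86-fold. Each table, without its 66 control probe sets, was quantile normalised, floored at its 10th percentile (1.47 and 1.13) and log2 transformed. Those whose mean reached the 25th percentile entered limma 3.58.1 in R 4.3.3 (lmFit, eBayes with a mean-variance trend), Benjamini-Hochberg adjusted within the table at 0.05. The number of arrays limits precision. Names come from the platform annotation, gene order from GRCm38.p6. For list genes, the brightest probe set that names no other gene was used. Probe sets of members are each named; from each list, genes that passed, or else the 2 brightest and 2 with the smallest p, are named; Nrtn, Pspn, Artn and Furin were added after their values were seen. Members and lists were chosen with earlier results of these data known. Genotypes share replicate numbers in the titles. Same-numbered samples correlated at 0.0171 to 0.0767 (array A) and 0.0127 to 0.109 (array B), over 0.1 in 0 of 6 and 1 of 6 pairs. These values are low but all above 0, and a shared origin of same-numbered samples was not tested. The numbers were not taken as pairs in the main fit, and a replicate block was fitted as an alternative. The pipeline was tested on simulated data. Alternatives changed the normalisation, floor, offset, filter, trend, array weights, blocks and samples.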

Additional observations from a re-analysis of the deposited data

Results flagged for a closer look

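In 3 of 30 groups of 6 samples, 1 sample stood far from the others, where chance gives about 1.5. Ntrk2 99069_at on array A was at 1.62 in 2N replicate 1 against 5.68 to 9.32 in the others, a gap of 0.717 of the log2 range. Gdnf 161598_at on array A was at 5.44 in Ts1Cje replicate 6 against 1.37 to 2.00, a gap of 0.763. Bdnf 110045_at on array B was at 2.16 in Ts1Cje replicate 2 against 0.633 to 1.42, a gap of 0.644. Gaps were taken after values below the floor were raised to it. For Gdnf 161598_at and Bdnf 110045_at this shortened the range, so both gaps are larger than the printed intensities give. All 3 probe sets are dim, and the Gdnf and Bdnf ones were not tested.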

How the results depend on the processing

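Of the tested members and pathway genes, 0 passed on either array under each of the 24 alternatives, with the lowest adjusted p of a member at 0.562. With the replicate block, 0 members and 0 pathway genes passed; the tables' calls stayed at 9 and 6, and 3 of 6 samples (array A) and 2 of 6 (array B) correlated best with their own number. Without normalisation between arrays no probe set of either table passed (0 and 0). The tables' calls were 2 and 0 without the trend, 8 and 2 without the filter, 6 and 1 with replicates 3 to 6, 6 and 0 with replicates 1 and 2, and 6 to 11 and 1 to 6 with 1 sample left out. The sign turned in 18 of 282 comparisons, for 7 of 12 probe sets. With replicates 3 to 6 only, Ntrk3 95334_at was at 0.0636, Gfra1 93872_at at 0.14 and Ret at 0.0573; with replicates 1 and 2 only, Ntrk2 99069_at was at 0.66, Ntrk2 105604_at at 0.0662 and Ntrk3 106470_at at 0.42. Ntrk3 95334_at was at 0.0094 with trimmed-mean scaling. Leaving out 1 sample gave -0.11 to 0.0747 for Ntrk3 95334_at, -0.72 to 0.0562 for Ntrk3 106470_at, -0.40 to 0.27 for Ret and -0.26 to 0.0297 for Ngfr. Gfra1 115410_at kept an unadjusted limma p under 0.05 in 21 of 24 alternatives and Ntrk3 114746_at in 15. The alternatives refit the same samples, and these members had the smallest p, so the counts are no independent support. Without normalisation, with replicates 3 to 6 only and with replicates 1 and 2 only, the unadjusted limma p of Gfra1 was 0.091, 0.066 and 0.14. For Ntrk3 it was 0.14, 0.18 and 0.090. The cause of the changes between settings was not tested. Dim signal limits the bounds for Ret, Gdnf and the dimmer Trk probe sets.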
